A study of Homo sapiens with 12 samples.

Results

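The genes examined here are the luminal keratins KRT7, KRT8, KRT18 and KRT19, the epithelial adhesion genes CDH1 and EPCAM, the claudin genes CLDN3, CLDN4 and CLDN7, and the mucin gene MUC1. They were taken by symbol from a table of read counts that lists 25370 genes, so they are 10 of 25370, and all 10 were found and tested. RNA-seq was performed in T47D cells, an established line of estrogen receptor-positive human breast cancer cells, in 4 groups of 3 libraries lettered a, b and c. The groups were vehicle, anastrozole (10 nM), E2 (0.1 nM), and both agents together at those concentrations, referred to as the combination. Anastrozole blocks aromatase, the enzyme that makes estrogens from androgens, and E2 is estradiol. All 12 libraries came from the same line, kept first in medium with charcoal-stripped serum, which removes steroids, and then without serum. The sample labels give 12 h of treatment and the methods of the study give 24 h, so the duration is uncertain for every group. The labels do not say whether the 3 replicates were separate cultures. The methods of the study describe gene expression data in general as coming from independent experiments, without naming these libraries, so p-values measure the spread between libraries that may be technical.

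Luminal cells of the breast face the lumen of the duct and carry a keratin network made of type II keratins (KRT7, KRT8) that pair with type I keratins (KRT18, KRT19). CDH1 encodes E-cadherin, which joins neighbouring cells at adherens junctions through calcium-dependent contacts and catenins. EPCAM is a transmembrane adhesion protein of epithelia that associates with claudin 7, and claudins form the strands of tight junctions that seal the space between cells. MUC1 is a heavily glycosylated mucin of the apical surface and is overproduced in many breast carcinomas. These genes are used as markers of luminal and epithelial identity, and CDH1 and several claudin genes are known targets of repressors such as SNAI1 and ZEB1, which bind E-box motifs.

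Promoters are shown for the 2 claudin genes and the mucin gene whose mRNA moved with treatment, and for CLDN7 as the claudin gene that passed the threshold in no comparison. They were read from RefSeq (GRCh38.p14), whose table held windows for 5 of the 10 genes, KRT8 being the other one. KRT7, KRT18, KRT19, CDH1 and EPCAM were not matched there. Each sequence is the 250 bases before a transcription start, 5′ to 3′ on the strand of the gene, and capitals mark E-boxes (CACCTG or CAGGTG) and single arms of the estrogen response element (GGTCA or TGACC).
CLDN3, chr7:73770271-73770520, minus strand: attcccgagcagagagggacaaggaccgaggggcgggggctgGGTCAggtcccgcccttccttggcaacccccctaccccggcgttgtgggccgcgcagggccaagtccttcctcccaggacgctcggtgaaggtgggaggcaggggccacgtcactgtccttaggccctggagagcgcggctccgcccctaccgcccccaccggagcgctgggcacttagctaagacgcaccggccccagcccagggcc
CLDN4, chr7:73830746-73830995, plus strand: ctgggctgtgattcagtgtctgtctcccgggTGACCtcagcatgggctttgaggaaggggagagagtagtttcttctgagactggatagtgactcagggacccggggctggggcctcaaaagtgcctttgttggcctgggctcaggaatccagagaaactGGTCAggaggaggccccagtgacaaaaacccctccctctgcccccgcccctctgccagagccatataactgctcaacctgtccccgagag
CLDN7, chr17:7262479-7262728, minus strand: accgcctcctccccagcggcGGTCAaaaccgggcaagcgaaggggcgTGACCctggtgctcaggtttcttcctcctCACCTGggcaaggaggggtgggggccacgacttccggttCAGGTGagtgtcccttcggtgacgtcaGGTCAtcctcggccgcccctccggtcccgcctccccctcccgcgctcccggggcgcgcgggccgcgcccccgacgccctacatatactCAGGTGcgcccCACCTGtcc
MUC1, chr1:155192916-155193165, minus strand: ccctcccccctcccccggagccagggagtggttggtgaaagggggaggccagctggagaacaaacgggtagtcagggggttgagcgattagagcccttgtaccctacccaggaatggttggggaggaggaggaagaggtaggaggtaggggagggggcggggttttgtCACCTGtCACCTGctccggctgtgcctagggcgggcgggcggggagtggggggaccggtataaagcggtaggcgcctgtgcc

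Among the 4 windows, MUC1 held 2 E-boxes, 82 and 75 bases before the start, and no such arm. CLDN7 held 4 E-boxes and 3 arms, while CLDN4 held 2 arms and CLDN3 held 1, with no E-box in either. RefSeq lists another start of CLDN7, whose window (chr17:7263214-7263463, not shown) held no E-box and 1 arm, so the contrast among the claudin genes depends on the start. Of all 35116 windows of this length in the table, searched on both strands, 32.6% held an arm and 17.5% held an E-box. The full estrogen response element in its exact form (GGTCANNNTGACC, which contains both arms) was in none of the 4 windows and in 0.0399% of all windows. CLDN3 and MUC1 each held 4 GC boxes (GGGCGG or CCGCCC), which 42.6% of all windows held at least once, and CLDN4 held 2 AP-1 motifs (TGANTCA), against 6.57% of windows with at least 1. A match describes letters in these windows and is not evidence of binding.

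Between 9914253 and 17009776 reads were counted on genes per library. The 10 genes together took between 0.799% and 0.914% of them, of which the keratins took between 0.607% and 0.703%, and each gene had at least 983 reads in each library. The pair of replicates furthest apart was anastrozole a and c, where chi-square over its degrees of freedom was 4.62 (1 would be sampling noise), while the other pairs were at 1.27 to 2.56. Anastrozole a had the lowest CLDN3 and KRT19 values of all 12 libraries, and its part in the calls is given beside them. In bulk RNA, fewer cells expressing a gene and less RNA per cell cannot be told apart.

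The markers of the line's labelled identity were present. The luminal markers ESR1, PGR, GATA3, FOXA1, XBP1 and TFF1 were above 3 counts in all 12 libraries, with PGR at 1952 to 2352 CPM (counts scaled to library size, normalized across libraries by TMM). TFF1 was low, at 0.87 to 2.24 CPM over the 12 libraries. The basal markers KRT5 and KRT6A were at or under 3 counts in each library, and of 10 basal and myoepithelial markers CDH3 carried most of the summed 117 to 137 CPM. Of 10 mesenchymal markers, ZEB1, ZEB2, SNAI2, SPARC and TWIST2 stayed at or under 3 counts throughout, and the summed 90.5 to 104 CPM came mainly from FN1. Leukocyte and endothelial markers summed to 3.65 to 7.57 CPM, of which CD68 was the only 1 of 5 above 3 counts in all libraries.

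In vehicle, levels per length were highest for the keratins other than KRT7. KRT19 was highest at 2168 ± 93.3 CPM per kb of transcript (SD, n = 3), followed by KRT8 at 1391 ± 30.9 and KRT18 at 846 ± 12.7. CLDN4 (227 ± 13.9), MUC1 (215 ± 2.54) and CDH1 (191 ± 5.24) formed a middle range, with the mean of MUC1 inside the SD of CLDN4. CLDN3 followed at 141 ± 11.4, then EPCAM at 101 ± 3.86 and KRT7 at 98.0 ± 5.26, each within the SD of the other, and CLDN7 was lowest at 61.8 ± 3.5. The length of the MUC1 transcript varies with its tandem repeat, so its place in this order depends on the annotated transcript.

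**Figure D1:**
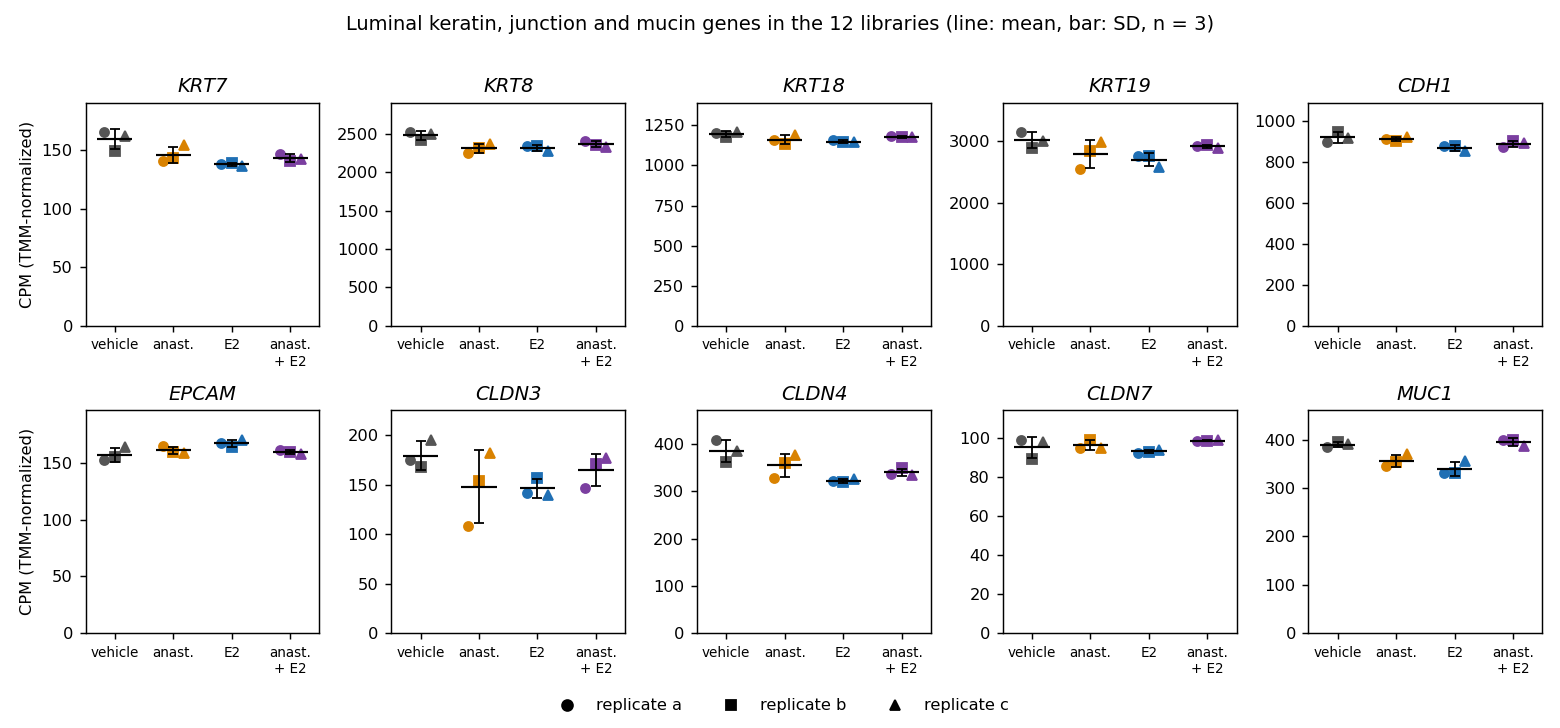
Level of each gene in CPM (vertical axes, from 0, TMM-normalized) in vehicle, anastrozole (anast.), E2 and the combination. Points are libraries, shaped by replicate letter, lines are means and bars are SD (n = 3). MUC1 in the combination (386 to 400.0 CPM) overlapped with vehicle (385 to 394 CPM), with 2 of 3 libraries above it, whereas CLDN4 in the combination (335 to 348 CPM) was below all vehicle libraries.

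E2 lowered 7 of the 10 genes and raised none at an adjusted p under 0.05. CLDN3 and CLDN4 fell most, by 18.2% and 16.4%, followed by KRT7, MUC1 and KRT19, and the falls of KRT8 and CDH1 were under 7%. KRT18, EPCAM and CLDN7 did not pass the threshold. Of all genes tested, 12% passed the threshold in this comparison, and 5.95% passed it as lower. Among the 2479 genes at least as abundant as CLDN7, called the abundant genes here and chosen as a background after the values were seen, 37.2% passed. The E2 and vehicle libraries did not overlap for 9 of the 10 genes, which held for 25.4% of all genes. The median log2 fold change was -0.13 over the 10 genes and 0 over all genes tested. The p-values come from the quasi-likelihood F test of edgeR, adjusted by Benjamini-Hochberg over 21132 genes, and log2 fold changes are given with their standard error.

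**Figure D2:**
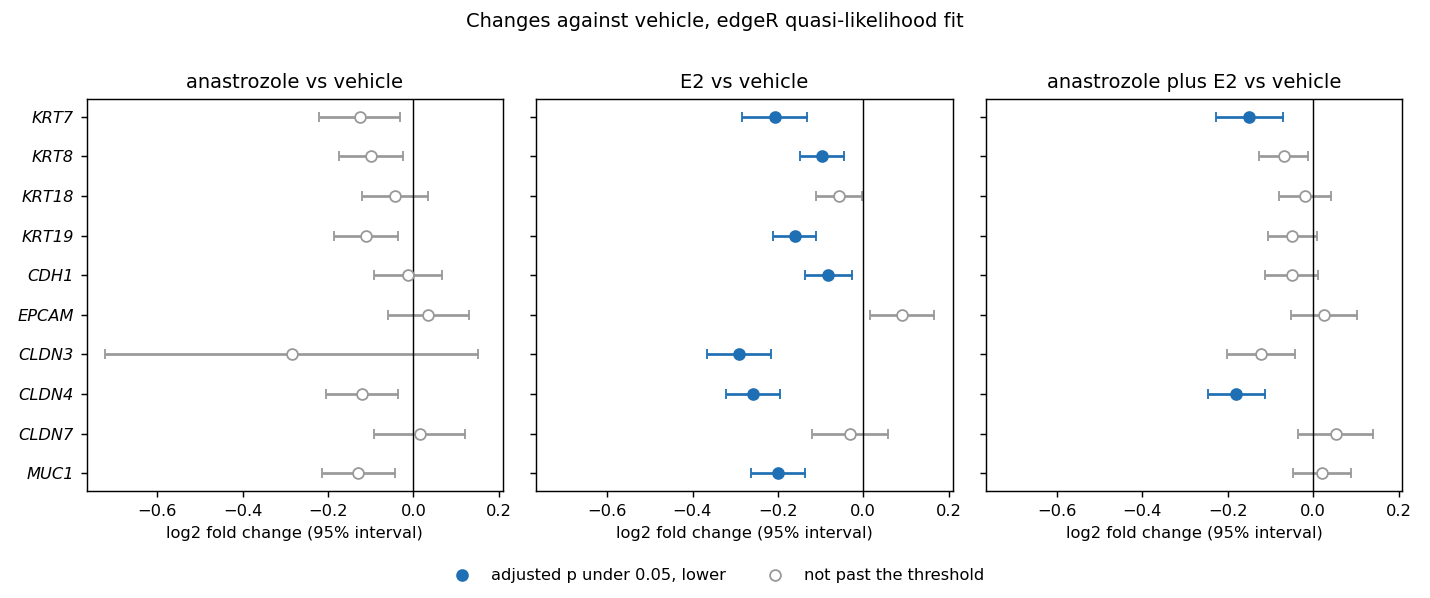
Log2 fold change against vehicle (horizontal axes) of the 10 genes for anastrozole, E2 and the combination, with 95% intervals. Filled points passed the threshold: none for anastrozole, 7 for E2 and 2 for the combination, and the wide interval of CLDN3 with anastrozole (-0.72 to 0.15) comes with 1 low library. The 3 panels share the vehicle libraries.

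Among the keratins, KRT7, a type II keratin of simple epithelia, was at 166, 149.6 and 163 CPM in vehicle libraries a, b and c (chr12:52626304-52645970, GRCh37). It was at 139, 139 and 136 CPM with E2, below all vehicle libraries, a log2 fold change of -0.21 ± 0.04 (adjusted p = 5.7e-06). With the combination it was at 147, 141 and 143 CPM, again below all vehicle libraries (-0.15 ± 0.04, adjusted p = 0.007). Anastrozole alone gave 141, 143 and 154 CPM, which overlapped with vehicle.

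KRT19, the smallest type I keratin and the most abundant of the genes described, was at 3148, 2889 and 3003 CPM in vehicle (chr17:39679869-39684560). With E2 it was at 2764, 2749.5 and 2573 CPM, a fall of 0.16 ± 0.03 (log2, adjusted p = 2.9e-08) without overlap. In the combination it stood at 2926, 2932 and 2881 CPM, within the range of vehicle except for library c, which was just below it. The anastrozole libraries were spread widely, at 2539, 2845 and 2984 CPM, and the value against vehicle was -0.11 with all 3 and -0.05 without library a.

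KRT8 and KRT18 form the primary keratin pair of simple epithelia and lie next to each other on chromosome 12 on opposite strands (chr12:53290971-53343738 and chr12:53342655-53346690). KRT8 was at 2528, 2421 and 2497 CPM in vehicle and at 2349, 2339 and 2277 CPM with E2, lower in all 3 libraries (-0.10 ± 0.03, adjusted p = 0.0034). KRT18 was at 1203, 1176 and 1209 CPM in vehicle and at 1159, 1145 and 1145 CPM with E2, which was also lower in all 3 but did not pass the threshold (-0.06 ± 0.03, 95% interval -0.11 to -0.0032, adjusted p = 0.18). The ratio of KRT8 to KRT18 counts was 2.08 ± 0.02 (SD, n = 3) in vehicle and 2.02 ± 0.03 with E2. Their exons overlap over 17.1% of the KRT18 exon bases and 7.63% of those of KRT8, and the strand setting of the counting is not given in the sources used here, so reads of the shared stretch cannot be assigned. Leaving out vehicle c or E2 c ended the call for KRT8 with E2, with adjusted p = 0.059 and 0.082.

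CDH1 was at 895, 945 and 914 CPM in vehicle and at 876, 874 and 852 CPM with E2 (chr16:68771195-68869440). The fall of 0.08 ± 0.03 on the log2 scale was near the threshold (adjusted p = 0.038), and the call was lost when any library other than vehicle a was left out, with adjusted p of 0.076 to 0.24, with limma-voom (adjusted p = 0.07) and with all 12 libraries in the fit (adjusted p = 0.11). CDH1 stayed at 899 to 919 CPM with anastrozole and 869 to 901 CPM with the combination, and neither group passed the threshold against vehicle. EPCAM (chr2:47572297-47614740) was the only one of the 10 genes with a positive log2 fold change with E2 (0.09 ± 0.04, adjusted p = 0.11, not past the threshold). Its values were 152, 155 and 164 CPM in vehicle and 167, 164 and 170.4 CPM with E2. The range of EPCAM over all 12 libraries was 0.16 on the log2 scale, near that of KRT8 (0.16) and CLDN7 (0.16). KRT18 (0.09) and CDH1 (0.15) had narrower ranges, and CLDN3 had the widest (0.85).

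Of the claudin genes, CLDN3 and CLDN4 lie on the same stretch of chromosome 7 (chr7:73183327-73184600 and chr7:73213872-73247020). CLDN4 was at 409, 362 and 384 CPM in vehicle and at 321, 318 and 326 CPM with E2, below all vehicle libraries (-0.26 ± 0.03, adjusted p = 4.6e-13). With the combination it was at 336, 348 and 335 CPM, also without overlap (-0.18 ± 0.03, adjusted p = 2.4e-05), a call lost with limma-voom (adjusted p = 0.1). CLDN4 was thus low in both groups that received E2. With anastrozole alone it was at 327, 360.1 and 375 CPM, above all E2 libraries (0.14 ± 0.04 against E2, adjusted p = 0.019). In that direct comparison 1.33% of all genes (0.62% as higher) and 6.29% of the abundant genes passed the threshold, and CLDN4 was the only one of the 10 to do so. The call was lost when any single library except anastrozole a was left out, and without anastrozole a KRT19 (adjusted p = 0.036) and CLDN3 (adjusted p = 0.0031) were called higher as well. Libraries did not overlap for 4 of the 10 genes, against 13.1% of all genes.

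CLDN3, whose exons have the highest GC content of the 10 genes (69.2%), was at 175, 168 and 196 CPM in vehicle and at 142, 157 and 139.6 CPM with E2. The E2 libraries were all lower (-0.29 ± 0.04, adjusted p = 5.8e-12). This call held when any of the 6 libraries was left out (-0.35 to -0.22) but not when all 12 libraries shared 1 estimate of the spread (adjusted p = 0.4). The anastrozole libraries were at 109, 154 and 182 CPM, which gave -0.28 ± 0.22 against vehicle (adjusted p = 0.69), and -0.10 without anastrozole a. In the combination CLDN3 was at 147, 172 and 177 CPM, overlapping with vehicle (-0.12 ± 0.04, adjusted p = 0.054). That value ranged from -0.17 to -0.04 on leaving out single libraries and was called lower without vehicle b (adjusted p = 0.0044), combination b (adjusted p = 0.048) or combination c (adjusted p = 0.0096), with DESeq2's size factors (adjusted p = 0.04) and with the replicate block (adjusted p = 0.006).

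CLDN7 was at 98.8, 89.1 and 98.0 CPM in vehicle, at 94.8, 99.3 and 94.9 CPM with anastrozole, at 92.3, 93.2 and 94.2 CPM with E2 and at 98.5, 98.7 and 99.3 CPM with the combination (chr17:7163222-7167302). No comparison called it, and the 95% interval of its log2 fold change with E2 was -0.12 to 0.06. The combination libraries lay above all E2 libraries (0.08 ± 0.04, adjusted p = 0.23). A protein-coding gene model on the same strand shares 10.8% of the CLDN7 exon bases.

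MUC1 (chr1:155158300-155162707) was at 385, 394 and 389.8 CPM in vehicle. With E2 it was at 332, 330.1 and 355 CPM, lower in all 3 libraries (-0.20 ± 0.03, adjusted p = 5.2e-08). With anastrozole it was at 346, 353 and 369.7 CPM, also below all vehicle libraries, although the adjusted p was 0.066 (-0.13 ± 0.04). With the combination it was at 400.0, 399 and 386 CPM and overlapped with vehicle, with 2 of 3 libraries above it (0.02 ± 0.03, 95% interval -0.05 to 0.09). MUC1 values were thus lower with each agent alone, past the threshold only for E2, and not lower with both. With each library's trend on the GC content of genes removed, as described later, the value with anastrozole was -0.04 (adjusted p = 0.69).

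Anastrozole alone called none of the 10 genes by edgeR on the 6 libraries of that comparison, where 3.67% of all genes passed (2.27% as lower) and 12.9% of genes at least as abundant as CLDN7. The libraries did not overlap for 2 of the 10 genes, KRT8 and MUC1, against 17.7% of all genes. DESeq2 and limma-voom called none either, whereas edgeR called KRT8, KRT19, CLDN4 and MUC1 lower with all 12 libraries in the fit (adjusted p = 0.013 to 0.035) and CLDN3 lower with the replicate block (adjusted p = 3.9e-04). Of all 21132 genes, 1229 passed with all 12 libraries in the fit and 823 with the replicate block, against 776 before. At an unadjusted p under 0.05 there were 5 genes, all lower: KRT7, KRT8, KRT19, CLDN4 and MUC1. Of all 21132 genes, 3198 were under that p, 1799 of them lower. The log2 fold changes of these 5 lay between -0.13 and -0.10, with adjusted p from 0.066 to 0.14, and between -0.05 and -0.01 with the GC trend removed. The count of called genes rose to 5 without anastrozole c, where 1651 of all genes passed, and to 1 without vehicle b, where 762 passed. In simulated counts for this comparison 80% of 1.2-fold changes and 10% of 1.1-fold changes were recovered, and all 5 of these genes had changes under 1.1-fold. The simulated libraries held no GC trend, unlike the real ones, so these rates do not show whether changes of these 5 genes were missed.

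The combination lowered KRT7 and CLDN4 against vehicle and called no other of the 10 genes, in a comparison in which 5.04% of all genes (2.33% as lower) and 15.2% of the abundant genes passed. Its libraries did not overlap with vehicle for 3 of the 10 genes (18.5% of all genes). The call for KRT7 was lost without vehicle a, vehicle c, or combination b or c, with adjusted p of 0.058 to 0.1, and also with DESeq2 (adjusted p = 0.053) and limma-voom (adjusted p = 0.16). Set against E2, the combination was higher for MUC1, CLDN3 and KRT19, and 6.74% of all genes (3.23% as higher) and 27.3% of the abundant genes passed. The libraries did not overlap for 7 of the 10 genes, against 21.1% of all genes. MUC1 rose by 0.22 ± 0.03 (log2, adjusted p = 1.8e-09) and KRT19 by 0.11 ± 0.03 (adjusted p = 0.0017), both without overlap, and KRT19 lost its call without E2 c (adjusted p = 0.17). For CLDN3 the rise of 0.17 ± 0.04 (adjusted p = 0.0046) came with libraries that overlapped, and the call was lost with DESeq2 and with limma-voom (adjusted p = 0.26 in both) and without combination b or c (adjusted p = 0.05 and 0.078). It was also lost with filterByExpr (adjusted p = 0.34), with all 12 libraries in the fit (adjusted p = 0.68) and with the GC trend removed. Against anastrozole alone, MUC1 was the only gene called for the combination (0.15 ± 0.04, adjusted p = 0.025), where 2.9% of all genes (1.71% as higher) and 10.6% of the abundant genes passed and where 1 of the 10 genes, against 16.9% of all genes, had libraries without overlap. Leaving out any library other than anastrozole c ended that call.

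The interaction of anastrozole and E2 asks whether the combination departs from the sum of the 2 separate effects on the log2 scale. It was positive and past the threshold for 5 of the 10 genes, with 10.9% of all genes called, 5.93% as higher, and 33.8% of those at least as abundant as CLDN7. The largest called value was that of MUC1 at 0.35 ± 0.05 (adjusted p = 1.5e-08), followed by KRT19 at 0.22 ± 0.04 (adjusted p = 5.0e-05), CLDN4 at 0.20 ± 0.05 (adjusted p = 0.0035), KRT7 at 0.18 ± 0.06 (adjusted p = 0.026) and KRT8 at 0.13 ± 0.05 (adjusted p = 0.046). CLDN3 had a larger estimate but a wide interval (0.46, 95% interval -0.02 to 0.93), and was called only with the replicate letter as a block (adjusted p = 5.8e-11). KRT18, CDH1, EPCAM and CLDN7 were not called, and EPCAM had the only negative value (-0.10 ± 0.06). Of 12 fits that each left out 1 library, MUC1 and KRT19 were called in 12, CLDN4 in 10, KRT7 in 6 and KRT8 in 2. With the GC trend removed, MUC1 alone stayed called (0.17), while KRT19 was at 0.03, CLDN4 at 0.06, KRT7 at 0.03 and KRT8 at -4.2e-04. Without anastrozole a the calls of CLDN4 (adjusted p = 0.069), KRT7 (adjusted p = 0.11) and KRT8 (adjusted p = 0.11) were lost, and without vehicle a the same 3 were lost (adjusted p = 0.064, 0.12 and 0.15). KRT7 was also lost with DESeq2 (adjusted p = 0.06) and with limma-voom (adjusted p = 0.075), as was CLDN4 with limma-voom (adjusted p = 0.052). The interaction is fitted on the same libraries as the comparisons above and is not separate evidence of them.

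Changes in these libraries followed the GC content of genes, and the described genes are GC-rich. The median exon GC content was 47.6% over 10861 genes, while 8 of the 10 genes lay between 55.7% and 69.2%, and CDH1 (48.5%) and EPCAM (48.1%) lay near the median. Across genes, which are not independent replicates, Spearman's rho between GC content and log2 fold change was -0.55 for E2 against vehicle, -0.53 for anastrozole against vehicle, -0.03 for the combination against vehicle, 0.68 for the combination against E2 and 0.71 for the interaction. In the bin of genes by GC content that holds KRT7, KRT19, CLDN7 and MUC1, the median log2 fold change with E2 was -0.10, with quartiles of -0.17 and -0.01. KRT7 (-0.21) and MUC1 (-0.20) were below the lower quartile of that bin, KRT19 (-0.16) was inside, and CLDN7 (-0.03) was above its median. CLDN4 (-0.26) was below the lower quartile of its own bin (-0.15), as was CLDN3 (-0.29) in the highest bin (-0.21). The part of GC content in these results was measured by removing each library's trend on it, a step that takes out real changes too where they run with GC content.

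**Figure D3:**
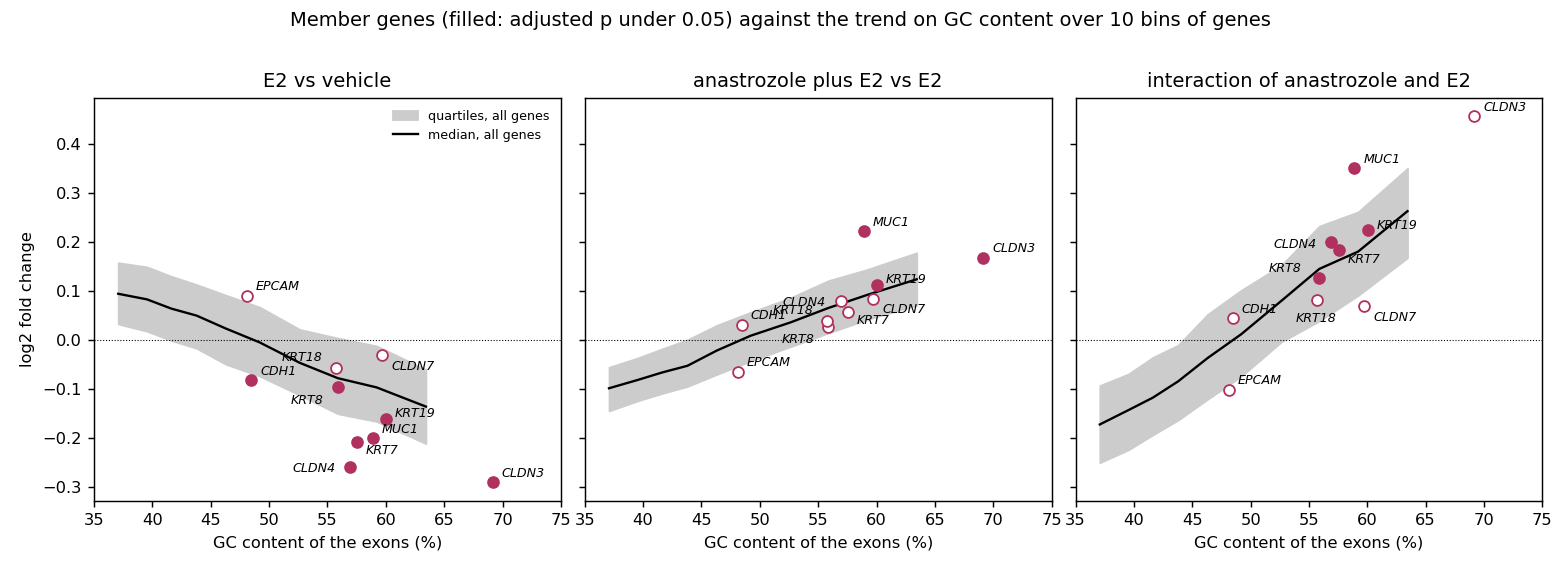
Log2 fold change (vertical axes) against the GC content of the exons in percent (horizontal axes) for E2 against vehicle, the combination against E2, and the interaction. The line and band are the median and quartiles of all genes in 10 bins of GC content, points are the 10 genes, and filled points passed the threshold. MUC1 lies outside the band in all 3 panels, and KRT8 and KRT18 lie inside it in all 3.

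With the GC trend removed, 5 of the 7 genes called lower with E2 were still called. CLDN4 was at -0.18 (adjusted p = 7.1e-08), KRT7 at -0.12 (adjusted p = 0.011), CLDN3 at -0.11 (adjusted p = 0.026), MUC1 at -0.11 (adjusted p = 0.0063) and CDH1 at -0.08 (adjusted p = 0.017). KRT19 (-0.05, adjusted p = 0.11) and KRT8 (-0.03, adjusted p = 0.6) were no longer called. For the combination against E2 and for the interaction, MUC1 alone was called, at 0.13 (adjusted p = 0.0023) and 0.17 (adjusted p = 0.0058). All-gene counts in these fits were 198 and 553, against 1424 and 2295 before. CLDN3 moved from 0.17 to 0.00089 in the combination against E2. Against anastrozole, the combination no longer raised MUC1 (0.07, adjusted p = 0.42), and CLDN4 was called lower (-0.12, adjusted p = 0.015). Against vehicle, the combination again lowered KRT7 (-0.14, adjusted p = 0.0039) and CLDN4 (-0.17, adjusted p = 2.9e-06). Of all genes, 1273 passed in this fit and 425 in the fit of the combination against anastrozole.

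**Figure D4:**
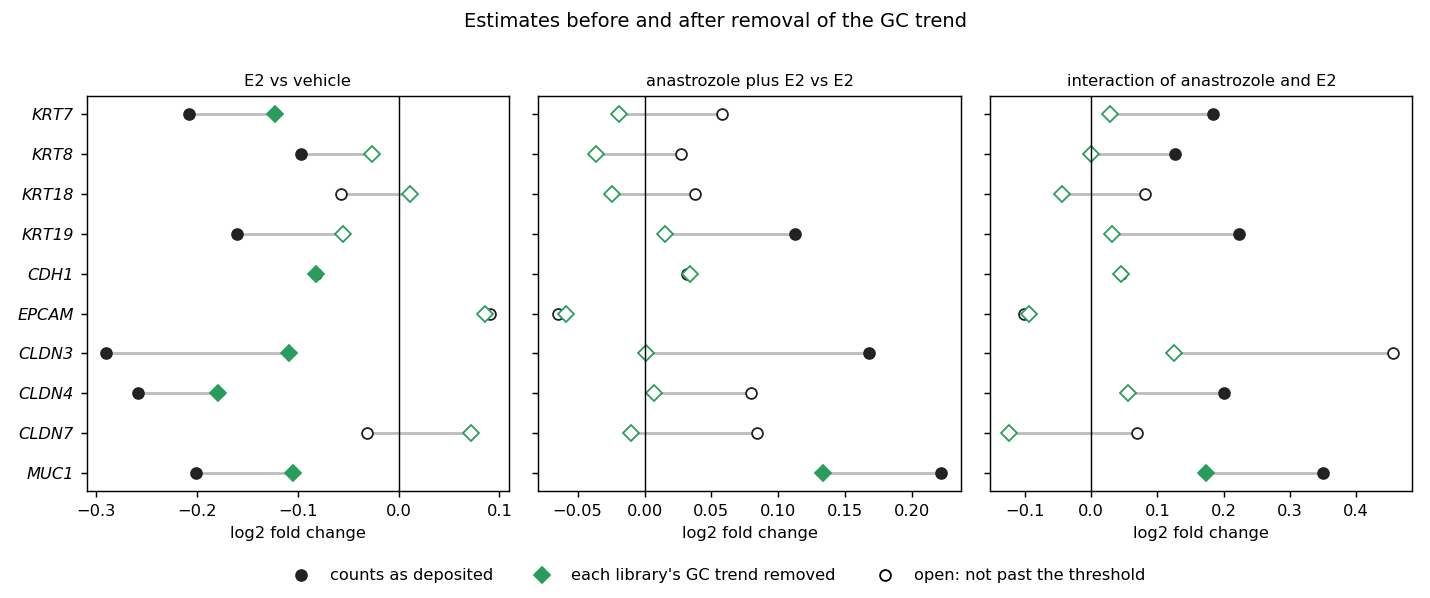
Log2 fold change (horizontal axes) of the 10 genes from the counts as deposited (circles) and with each library's GC trend removed (diamonds), for E2 against vehicle, the combination against E2, and the interaction. Filled symbols passed the threshold. The counts called go from 7 to 5, from 3 to 1 and from 5 to 1, and the one gene that stays filled in all 3 panels is MUC1. Over all genes tested the counts go from 2537 to 1598, from 1424 to 198 and from 2295 to 553.

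Other junction genes were called in both directions with E2, where 12% of all genes and 37.2% of the abundant genes passed. Of the other keratins and keratin linkers 1 gene was called, lower. Of 18 other tight junction genes 2 rose and 2 fell, with CLDN1, another claudin gene, at -0.25 ± 0.05 (adjusted p = 2.1e-05) and CLDN12 at 0.20 ± 0.05 (adjusted p = 9.4e-04). Of 9 adherens junction partners 3 fell and 1 rose, and the largest fall was that of JUP, which encodes plakoglobin, at -0.26 ± 0.03 (adjusted p = 3.0e-16). JUP was at 799 to 843 CPM in vehicle, 680 to 689 CPM with E2 and 781 to 793 CPM with the combination, in which it was higher than with E2 (0.20 ± 0.03, adjusted p = 1.0e-08), though not with the GC trend removed (0.09, adjusted p = 0.058). The desmosome genes had 2 of 9 higher, among them DSG2 (0.18 ± 0.04, adjusted p = 4.5e-05), and 2 lower, among them EVPL (-0.24 ± 0.04, adjusted p = 3.9e-09). Of 10 other keratins and keratin linkers, PLEC, whose product plectin anchors keratin filaments, was the only one called (-0.39 ± 0.03, adjusted p = 2.9e-39).

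Epithelial regulators and surface proteases had 6 of 16 genes lower with E2 and none higher, in the comparison in which 5.95% of all genes passed as lower and 37.2% of the abundant genes passed in either direction. The largest of these changes were those of SPINT1, an inhibitor of epithelial serine proteases (-0.22 ± 0.03, adjusted p = 1.9e-09), the splicing regulator ESRP2 (-0.19 ± 0.04, adjusted p = 2.6e-05) and CD24 (-0.19 ± 0.03, adjusted p = 5.9e-07). With the GC trend removed, the counts with E2 were 0 higher and 3 lower of the tight junction genes, 0 and 1 of the adherens junction partners, 1 and 2 of the desmosome genes, 0 and 1 of the other keratins and linkers, and 1 and 3 of the regulators and proteases. Of all 21132 genes, 1598 passed in that fit. CD24 was also lower with the combination than with vehicle (-0.29 ± 0.03, adjusted p = 1.4e-14), as were CLDN1 (-0.34 ± 0.05, adjusted p = 2.5e-09) and PLEC (-0.24 ± 0.03, adjusted p = 2.0e-11). Anastrozole alone lowered 2 of 18 tight junction genes, 3 of 9 adherens junction partners and 2 of 9 desmosome genes, with LSR, a tricellular junction gene (-0.25 ± 0.06, adjusted p = 0.0073), and PKP3, a plakophilin (-0.25 ± 0.06, adjusted p = 0.0011), changed most. The share of all genes lower in that comparison was 2.27%. Of the 16 regulators and proteases 3 rose and 2 fell with anastrozole, where 296 of all 21132 genes rose. With the GC trend removed, 2 of these rose and none fell, 1 of the tight junction genes and none of the adherens junction or desmosome genes were lower, and LSR (-0.12, adjusted p = 0.31) and PKP3 (-0.09, adjusted p = 0.39) were not called. Of the other keratins and linkers, uncalled with anastrozole before, KRT23 then rose (0.15, adjusted p = 0.03) and PLEC fell (-0.13, adjusted p = 0.0011). All-gene calls in that fit numbered 612.

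Among markers of other cell types and states, CDH3 was at 94.6 to 114 CPM and FN1 at 84.9 to 96.0 CPM over the 12 libraries. SNAI1, the repressor of CDH1, was at 1.13 to 1.98 CPM in vehicle and 2.05 to 2.78 CPM with E2 (0.73 ± 0.26, adjusted p = 0.047). It was at 1.59 to 3.32 CPM with anastrozole and 1.60 to 2.36 CPM with the combination, and was called in neither against vehicle. VIM, the mesenchymal intermediate filament gene, was at 1.13 to 2.21 CPM in vehicle and 2.01 to 3.47 CPM with E2, with overlap (0.70 ± 0.25, adjusted p = 0.043), and was not called with the GC trend removed (0.72, adjusted p = 0.051). ZEB1 and ZEB2 were at or under 3 counts in all libraries. VIM (0.74 ± 0.24, adjusted p = 0.045) and the basal marker ACTA2 (0.37 ± 0.11, adjusted p = 0.022) were also higher with the combination than with vehicle, and CDH3 was higher with the combination than with E2 (0.12 ± 0.04, adjusted p = 0.032). With the GC trend removed, CDH3 was no longer called for the combination against E2. It was then called higher against vehicle with anastrozole (0.14, adjusted p = 0.044) and with the combination (0.13, adjusted p = 0.036). CD68 rose with E2 (0.55 ± 0.17, adjusted p = 0.015) and with anastrozole (0.71 ± 0.18, adjusted p = 0.0051) at 3.12 to 7.14 CPM over these groups. Of 7 luminal markers, E2 called 3 lower and 0 higher, where 5.95% of all genes passed as lower, and 3 of the 7 had positive values. FOXA1 (-0.14 ± 0.03, adjusted p = 3.3e-04) and ESR1 (-0.14 ± 0.04, adjusted p = 0.0038) were among those lower with E2. Anastrozole called 2 of the 7 lower and 0 higher, where 2.27% of all genes passed as lower. With the GC trend removed, anastrozole lowered PGR (-0.18, adjusted p = 1.1e-08) and raised GATA3 (0.11, adjusted p = 0.01), where 612 of all genes passed. The part of these markers in the changes of the keratin and junction genes was not tested.

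Profiles over the 12 libraries were compared by the root mean square difference of log2 CPM, each profile centred on its own mean, among 11050 genes. KRT8 and KRT18 were each other's most alike gene within the group (0.029), and the nearest of all genes were POFUT1 for KRT8 (0.021) and TM9SF4 for KRT18 (0.019). Among all genes, KRT18 ranked 15th for KRT8, and KRT8 ranked 23rd for KRT18. KRT18 was also the nearest within the group for CDH1, EPCAM and CLDN7. KRT7 was nearest to SPINT1 (0.028) and, within the group, to CLDN4 (0.044), for which KRT7 ranked 7th of all genes after GPR56 at the top (0.037). The others were nearest to SURF6 (KRT19), NFRKB (CDH1), SLC44A1 (EPCAM), CTSB (CLDN7) and TYK2 (MUC1), at 0.021 to 0.037. CLDN3 had the least close neighbour, CCDC157 at 0.068, and the widest spread of its own (SD 0.23). These distances share the libraries and their GC trend and are a description.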

How the data were processed

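The authors used TopHat 2.0.14 with bowtie 2.2.6 to map reads of 12 T47D libraries (hg19), applied htseq-count, and deposited whole-number counts without normalization. The htseq-count version, strand setting and annotation are not given in the sources used here. Reads with several alignments (6.60% to 7.40% of each library's table total) were left out with the rest of the 5 summary lines. The labels name polyA RNA, whereas the protocol describes libraries of total RNA. Of 25370 genes, 4238 at 0 throughout were removed. Pairs of groups were fitted on their own 6 libraries, and the interaction on all 12, with edgeR 4.0.16 in R 4.3.3 (TMM, robust quasi-likelihood F test, 2-sided, Benjamini-Hochberg over 21132 genes, threshold 0.05). The standard error was computed as the size of the log2 fold change over the square root of F. CPM values are TMM-normalized. Groups and replicate letters came from the labels.

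The genes described, the other lists and the rule for naming were chosen with earlier results of these data known: all 10 genes are given, and from each other list the 3 largest changes at most among those past the threshold, with markers named by level. Alternatives were DESeq2's size factors, library size alone, filterByExpr, DESeq2 1.42.0, limma-voom (limma 3.58.1), a block for the replicate letter, pooling of all 12 libraries, removal of each library's GC trend (lowess, span 0.5, genes of at least 3 log2 CPM), and leaving out each library. Exon GC content and GRCh37 positions came from GENCODE release 44 mapped to GRCh37, with 21539 genes matched by symbol, 1493 by an older symbol and 2338 unmatched, which gave GC content for 98.3% of the genes used for the trend. The tests were tried on simulated data with 200 changed genes. A listed marker is not reported here.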

Additional observations from a re-analysis of the deposited data

Results flagged for a closer look

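The effect of E2 differed between cells with and without anastrozole, by the interaction term of edgeR's quasi-likelihood fit over all 12 libraries, for 5 of the 10 genes, where 10.9% of all genes and 33.8% of those at least as abundant as CLDN7 were called. The log2 interaction was 0.35 for MUC1, 0.22 for KRT19, 0.20 for CLDN4, 0.18 for KRT7 and 0.13 for KRT8. E2 lowered each of these genes without anastrozole, whereas with anastrozole present the change with E2 was 0.15 for MUC1, 0.06 for KRT19, -0.06 for CLDN4, -0.03 for KRT7 and 0.03 for KRT8, of which MUC1 was past the threshold. With the GC trend removed, 1 of the 5 (MUC1, 0.17) passed the threshold.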

How the results depend on the processing

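The count of genes past the threshold for E2 against vehicle lay between 5 and 7 of 10 in all alternatives run. For anastrozole against vehicle the count of 0 became 4 with all 12 libraries in the fit (KRT8, KRT19, CLDN4, MUC1) and ranged from 0 to 5 when single libraries were left out. For the combination against vehicle the count of 2 became 1 with DESeq2 and 0 with limma-voom, with 1 to 3 on leaving out single libraries. For the combination against E2 the count of 3 became 1 with the GC trend removed, also with the replicate block, and 2 to 3 on leaving out single libraries. For the combination against anastrozole the count of 1 became 0 with filterByExpr and with limma-voom, and 0 to 2 without single libraries. For anastrozole against E2 the count of 1 became 0 with filterByExpr, DESeq2 and limma-voom, and 0 to 3 without single libraries. For the interaction the count of 5 became 3 with limma-voom, 1 with the GC trend removed, with or without the replicate block, and 2 to 5 without single libraries. The interaction of KRT8 changed sign with the GC trend removed, to -4.2e-04 both with and without the replicate block. Other causes of these moves were not tested.

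With the replicate block, that is the letter as a term, the count became 1 for anastrozole against vehicle (CLDN3), also with the GC trend removed, 4 for the combination against vehicle, also with the GC trend removed, 2 for the combination against anastrozole, 0 for anastrozole against E2, 6 for E2 against vehicle (CDH1 lost) and 6 for the interaction (CLDN3 gained). The labels give libraries of 1 letter nothing in common but the letter, and a shared batch was not tested. In no comparison did all 3 letters have correlated deviations above 0.1, and in none did each library correlate best with its own letter. Letter a did correlate best with itself between the combination and E2 (0.31), the combination and anastrozole (0.32), and anastrozole and E2 (0.20). Against vehicle, letter a was at -0.08 for anastrozole, -0.09 for E2 and 0.07 for the combination.

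Counts over all genes moved by over 1.5 times as follows. Anastrozole against vehicle went from 776 to 419 with filterByExpr, 238 with DESeq2, 15 with limma-voom and 1229 with all 12 libraries. E2 against vehicle went from 2537 to 1407 with DESeq2, 1379 with limma-voom and 1598 with the GC trend removed. The combination against vehicle went from 1065 to 476 with DESeq2 and 347 with limma-voom. The combination against E2 went from 1424 to 638, 451, 824 and 198 with DESeq2, limma-voom, all 12 libraries and the GC trend removed. The combination against anastrozole went from 612 to 295, 222 and 90 with filterByExpr, DESeq2 and limma-voom, and anastrozole against E2 from 280 to 160, 110 and 70, to 180 with the replicate block and to 495 with the GC trend removed. Without single libraries the ranges were 191 to 1651 for anastrozole against vehicle, 682 to 964 for the combination against vehicle, 885 to 1176 for it against E2, 234 to 1706 for it against anastrozole and 107 to 414 for anastrozole against E2. The interaction went from 2295 to 553 with the GC trend removed. Among 1100 refits of single genes, 993 stayed on their side of the threshold (values not called could change sign), 78 lost a call with the sign kept, 2 lost it with the sign changed, and 27 gained one. At this depth changes of 1.1-fold were recovered in 36% of cases for E2 against vehicle, in simulated libraries without a GC trend.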
